A study of Brassica napus with 6 samples.

Results

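Among the transcripts of young rapeseed (Brassica napus) floral buds, 81 were already detectable in water-sprayed plants and stood at least 4 times higher, without overlap between groups, in plants sprayed with the herbicide amidosulfuron. They were selected on measured values of that same contrast: an upper quartile of at least 10 counts over the 6 libraries, a mean control level of at least 1 count per 1000000 tabulated counts (CPM), a mean treated level of at least 4 times the control mean, and a lowest treated level above the highest control level. The rule kept 81 of 65535 tabulated transcripts, or 0.325% of the 24958 that passed the count criterion. Because the rule used the levels of both groups, the levels and folds of these transcripts are given as a description, without a test.

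All plants were of cultivar Qinyou3, raised under the same field and greenhouse conditions and sprayed at bolting with either water (control) or 0.3 mg/L amidosulfuron. Their buds were collected while the pollen mother cells were in meiosis. Each group has 3 biological replicates, and the labels do not say how many plants went into a replicate. A dissected bud holds sepal, petal, pistil and anther tissue at once, so a higher level can come from more RNA per cell or from a larger share of a cell type, which cannot be told apart. The gene identifiers come without symbols, so markers of bud tissue could not be looked up and the tissue label was not checked.

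Amidosulfuron belongs to the sulfonylureas, which block acetolactate synthase, the enzyme that opens the shared route to valine, leucine and isoleucine. In anthers, the tapetum feeds the developing pollen and is a tissue of high metabolic demand. Sprays at doses that spare the plant but leave pollen sterile are used as male gametocides in hybrid seed production, which is the use named in the series title.

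The files pair each assembled transcript with a Brassica rapa gene identifier where the authors found a match. Of the 81, 76 matched 60 genes and 5 had no match (6.17%, against 11.4% of all transcripts past the count criterion). None of the 20674 identifiers in the tables was found in the RefSeq gene table of Brassica napus, so neither function nor genome position is given for any member, and 2 genes alone are named below. The other members are told apart by transcript length in base pairs, recovered from the ratio of count to RPKM. Their lengths ran from 223 to 2062 bp with a median of 824 bp, against a median of 899 bp for all transcripts past the criterion.

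Tabulated counts per library ran from 1942711 to 3596321, which is 30.1% to 34.1% of the totals by which the authors divided to obtain RPKM (reads per kilobase of transcript and 1000000 mapped reads). The labels name no batch. In 67 of the 81 members at least 1 count was fractional (82.7%, against 89% of all transcripts past the criterion). The origin of the fractions is not stated in the labels. The summed control count of a member was 8 to 281 with a median of 21.2. It was under 20 for 35 members and under 10 for 10 members, and 3 members had a control library with 0 counts. The control libraries alone met the count criterion (upper quartile of at least 10 counts) for 38 members; the others passed it only with the treated libraries included.

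Summed, the members held a small and even share of the control libraries and a larger, uneven share of the treated ones. Their summed level was 458.5, 476.6 and 441.4 CPM in control 1, 2 and 3, and 8420, 2672 and 5763 CPM in amidosulfuron 1, 2 and 3. The group means were 458.8 CPM ± 17.6 and 5618 CPM ± 2877 (SD, n = 3). All 3 treated sums were above all 3 control sums, and the SD of the treated group came to a large part of its mean. The highest member alone held 16.8% of the summed treated level and the 10 highest held 50.5%. Without the highest member the sums were 6841, 2179 and 5000 CPM in the treated libraries against 446.9, 474.4 and 440.5 CPM in the controls.

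**Figure D1:**
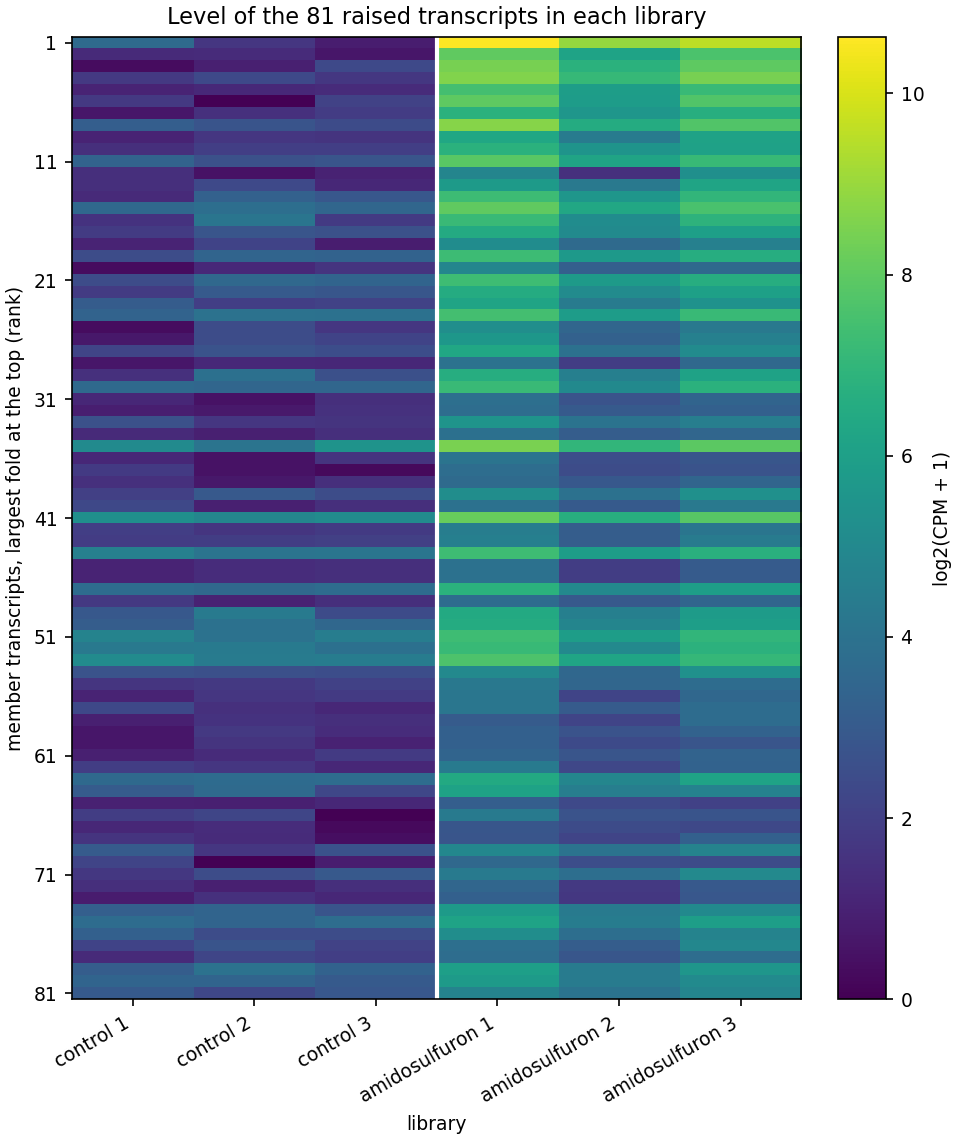
Level of each of the 81 transcripts (rows, ordered by fold, the largest at the top) in the 6 libraries (columns), as log2(CPM + 1) by colour. Each row is brighter in the 3 amidosulfuron libraries, and amidosulfuron 2 is the dimmest of the 3 for 78 of the 81 transcripts.

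Most members were low in control buds and moderately higher after the spray, and a small number were very much higher. The fold, taken as mean treated over mean control CPM, had a median of 6.19 and quartiles of 5.14 and 12.3, while the median over all transcripts past the count criterion was 0.962. It lay between 4 and 5 for 17 members, between 5 and 8 for 30, between 8 and 16 for 20, and at 16 or more for 14, of which 7 passed 50. Mean control levels ran from 1.01 to 33.4 CPM with a median of 2.86, and mean treated levels from 4.81 to 945 CPM with a median of 27.5. Per length, the median was 1.53 RPKM in the controls and 13 RPKM in the treated group. The median fold was 7.06 for the 30 members with a control mean of 1 to 2 CPM, 6.27 for the 22 between 2 and 5 CPM, and 5.6 for the 29 at 5 CPM or more. The control mean sets these classes and is also the divisor of the fold. At low control counts the count criterion also asks for higher treated counts, so nothing is read from this order.

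**Figure D2:**
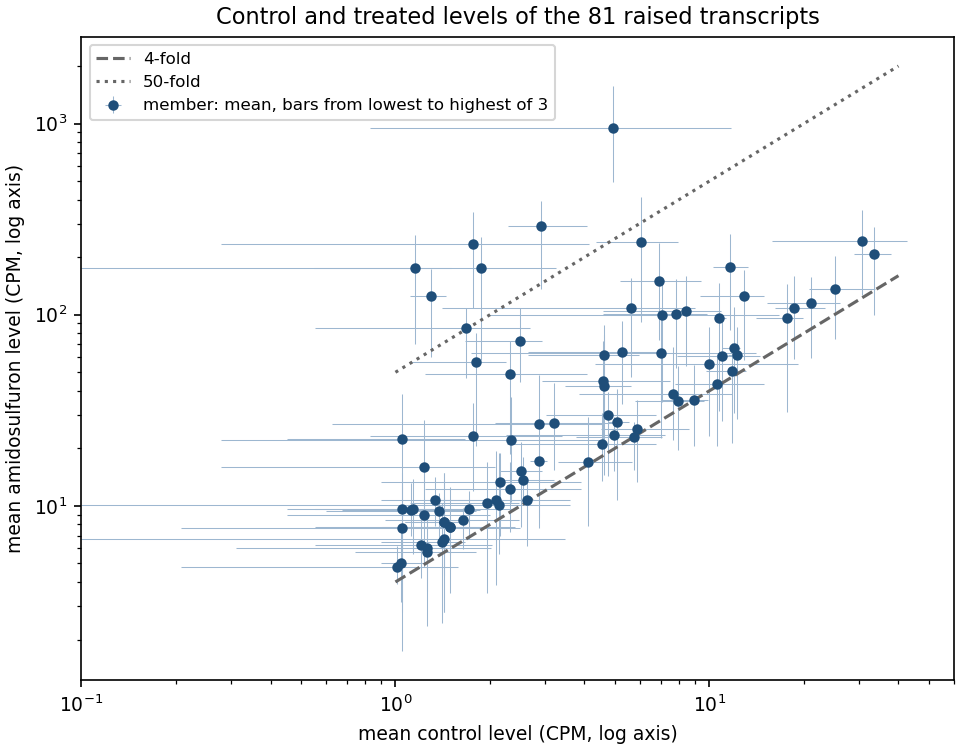
Mean control level against mean amidosulfuron level of the 81 transcripts, both in CPM on log axes, with bars from the lowest to the highest of the 3 libraries; bars that reach 0 CPM end at the left edge. Points lie on or above the 4-fold line by construction of the rule, and 7 lie above the 50-fold line.

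The member with both the highest treated level in CPM and the largest fold was 1822 bp long. It had 42, 5 and 2 counts in control 1, 2 and 3 and 3067, 1413 and 1573 counts in amidosulfuron 1, 2 and 3. Its level was thus 11.7, 2.25 and 0.828 CPM in the controls and 1579, 493 and 763 CPM in the treated libraries. The 3 treated values were far above the controls, among which control 1 stood apart from the others. The mean was 4.92 CPM ± 5.9 in the controls and 945 CPM ± 565 after the spray (SD, n = 3). This 192-fold difference would be 613-fold without control 1 and 128-fold without amidosulfuron 1. The other transcripts matched to the same gene were low in both groups, with a summed level of 3.89, 6.76 and 4.14 CPM in the controls and 7.21, 9.76 and 7.28 CPM after the spray. The sum over the gene was 96.7-fold higher.

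The next largest fold, 152, belonged to a transcript of 1127 bp. It stood at 1.39, 1.5 and 0.552 CPM in the controls and at 261, 70.3 and 194 CPM in amidosulfuron 1, 2 and 3. The lowest treated value was 46.8 times the highest control value, the widest gap among the members. A transcript of 276 bp followed, with 1, 2 and 10 control counts and 672, 309 and 519 treated counts. Its fold was 133, and 399 without control 3, which held most of its control counts, or 93.3 without control 1. It had the highest level per length of all members after the spray, at 378, 123 and 302 RPKM in the treated libraries (268 ± 131, SD, n = 3) against 0.344, 1.09 and 4.77 RPKM in the controls. A transcript of 243 bp matched to the same gene was next per length, at 194 RPKM ± 98.8 against 9.43 RPKM ± 3.3 (SD, n = 3), with a fold of 21.9 on the CPM scale.

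Another gene contributed a pair of members, of 940 and 699 bp. Their assembly components (the groups of related transcripts that the assembler forms) are counted here as separate, although the names share their first part. The longer one was second highest of all members in CPM. It had 2.36, 4.06 and 2.28 CPM in the controls and 394, 136 and 344 CPM in the treated libraries, a fold of 101. The shorter one had 1.11, 1.35 and 1.45 CPM against 174, 60 and 140 CPM, a fold of 95.7. Both had even control values, and the order of the treated libraries was the same in both. Summed over the gene the fold was 99.8.

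The third highest treated level, 242 CPM ± 113, was that of an 833-bp transcript that was also among the highest in control buds. It stood at 33.4, 15.8 and 42.7 CPM in the controls and 354, 127 and 246 CPM after the spray, a fold of 7.92 with all treated values above the controls. The member with the highest control level was 645 bp long, with 37.8, 28.8 and 33.7 CPM in the controls and 287, 100 and 233 CPM in the treated libraries. Its fold was 6.19, and it was also highest of the members per length in the controls, at 17.2 RPKM ± 2.57 (SD, n = 3).

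At the lower end of the rule stood members only just past the fold threshold. The 3 smallest folds were 4.01 for a transcript of 479 bp, 4.04 for one of 870 bp and 4.09 for one of 601 bp. The 479-bp transcript had 7.04, 3.76 and 6.42 CPM in the controls and 26, 15.4 and 27.6 CPM in the treated libraries. With 1 library left out, the lowest folds of these 3 transcripts were 3.42 (without control 2), 3.00 and 3.19 (both without amidosulfuron 1). Just outside the fold threshold lay transcripts of 1634 bp (3.995-fold, 9.02 to 36 CPM), 575 bp (3.983-fold, 2.17 to 8.65 CPM) and 534 bp (3.954-fold, 2.34 to 9.26 CPM), the first 2 of which matched the same gene. At the floor on the control mean, the nearest members stood at 1.012, 1.039 and 1.05 CPM. The nearest transcripts below that floor were at 0.9687, 0.9615 and 0.9463 CPM, with folds of 127, 12.9 and 5.99. Another 52 transcripts met every other criterion with a control mean under 1 CPM.

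The gap between the groups was narrow for many members. The lowest treated value was 1.045 to 46.8 times the highest control value, with a median of 2.39; the ratio was at least 2 for 54 members and at least 4 for 19. Groups without overlap in this direction were found for 7.58% of all transcripts past the count criterion, and the rule required it of every member.

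The treated replicates were graded, and most members followed the same grade. Amidosulfuron 1 held the highest treated value for 69 of the 81 members and amidosulfuron 3 for the other 12, while amidosulfuron 2 held the lowest for 78. The full order of amidosulfuron 1 above 3 above 2 was met by 66 members (81.5%), against 15.8% of all transcripts past the count criterion. The order within the treated group was no criterion of the rule. The absence of overlap was one. Among the 52 transcripts that met the rule in all but the control floor, 82.7% had the same order and 94.2% were lowest in amidosulfuron 2. Non-members without overlap upwards numbered 1812, the 52 included. Of these 1812, 42.5% had the same order and 67.7% were lowest in amidosulfuron 2.

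In size, the median member was 2.91 times higher in amidosulfuron 1 than in amidosulfuron 2 (quartiles 2.35 and 3.54). It was 2.13 times higher in amidosulfuron 3 than in amidosulfuron 2, and 1.4 times higher in amidosulfuron 1 than in 3. Over all transcripts past the criterion these medians were 0.912, 0.974 and 0.967, so the libraries as a whole were not offset in this direction. For the 1812 non-members without overlap upwards the ratio of amidosulfuron 1 to 2 had a median of 1.25. For the 52 among them that were nearly absent from control buds it was 3.69. The median of this ratio was 2.35 among members with folds of 4 to 5, and 2.82, 3.07 and 3.21 in the classes from 5 to 8, from 8 to 16 and from 16 upwards. Amidosulfuron 2 had the most tabulated counts of the treated libraries, 2867528, and amidosulfuron 1 the fewest, 1942711; the part of depth in the grade was not tested. With TMM-scaled library sizes the members lowest in amidosulfuron 2 again numbered 78.

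Read one library at a time, the median fold over the control mean was 9.14 in amidosulfuron 1, 7.13 in amidosulfuron 3 and 3.25 in amidosulfuron 2. In amidosulfuron 1, 80 members were at least 4-fold above the control mean, in amidosulfuron 3, 75, and in amidosulfuron 2, 33. Without amidosulfuron 1 the fold of 19 members fell below 4. No such grade was seen among the controls, where the highest value was in control 1 for 26 members, in control 2 for 35 and in control 3 for 20 (32.1%, 43.2% and 24.7%, against 30.3%, 39.2% and 30.4% of all transcripts past the criterion).

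**Figure D3:**
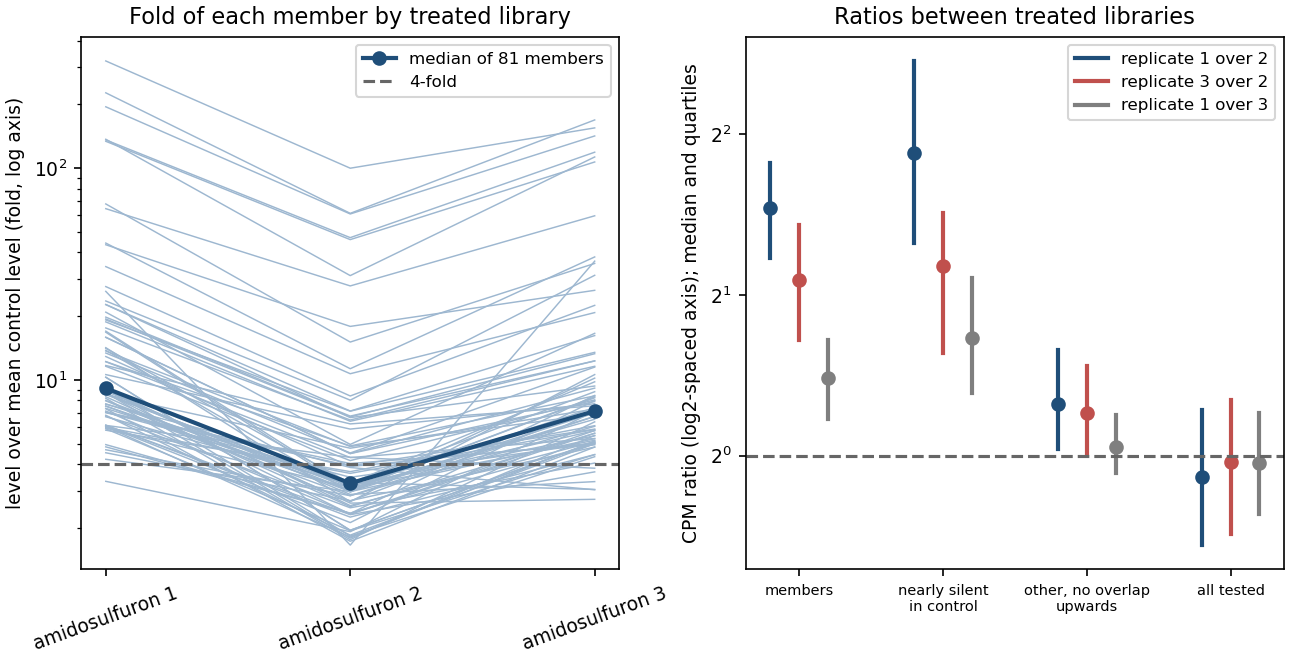
Left, level of each of the 81 members in each treated library over its mean control level (fold, log axis), with lines joining the values of 1 member and the median in dark blue at 9.14, 3.25 and 7.13. Right, ratios between treated libraries on a log2-spaced axis, with medians as points and quartiles as bars. The sets are the members, 52 transcripts nearly absent from control buds, 1812 non-members without overlap upwards and all 24958 past the count criterion. The 1812 include the 52. The medians of the first 3 sets stand above 1 in all 3 ratios, and those of all transcripts just below 1.

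The members differed in how even the treated replicates were. The highest treated value divided by the lowest had a median of 2.96 and ran from 1.59 to 22. The most even were a 540-bp transcript (6.18, 4.36 and 3.88 CPM in amidosulfuron 1, 2 and 3), a 294-bp transcript (9.78, 5.93 and 9.56 CPM) and a 711-bp transcript (8.65, 5.51 and 9.07 CPM). These were low members with folds of 4.75, 5.14 and 5.19. The least even was an 837-bp transcript with 27.5, 1.74 and 38.3 CPM in the treated libraries against 1.67, 0.451 and 1.04 CPM in the controls. Its value in amidosulfuron 2, 5 counts, was only just above control 1, with 6 counts in a larger library, so its fold of 21.4 rested on amidosulfuron 1 and 3; without amidosulfuron 3 it was 13.9. The next were transcripts of 492 bp and 1882 bp, with ratios of 5.53 and 5.42.

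Single libraries also set the size of some folds. For 26 members the fold moved by over 1.5 times when 1 library was left out. It did so for 13 without amidosulfuron 1, for 2 without amidosulfuron 3, for 5 without control 1, for 9 without control 2, for 3 without control 3 and for 0 without amidosulfuron 2. A 477-bp transcript, for example, stood at 1.95, 16.7 and 2.48 CPM in the controls and at 147, 34.9 and 117 CPM after the spray. Its fold was 14.1, with 44.9 without control 2 and 10.4 without control 1.

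Several matched genes contributed more than 1 member. Of the 60 genes, 49 had 1 member, 7 had 2, 3 had 3 and 1 had 4, and these 11 genes held 27 members. The 81 members came from 72 assembly components, of which 6 held 15 members. In 3 components the members matched different genes. Members of one gene or component can share reads and are not independent measurements. A pair of 1988 and 2062 bp matched to one gene had identical counts in all 6 libraries (3.833, 3.5 and 4 in the controls, 28.7, 8 and 15 in the treated libraries) and so amounts to 1 measurement.

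The gene with the most members was Brara.I05370. Its 4 members, of 796, 885, 1016 and 1105 bp, were all from 1 component and had folds of 12.1, 13.3, 12.3 and 13.0. Summed, they stood at 14.5, 33.8 and 30.2 CPM in the controls and at 495, 174 and 322 CPM in the treated libraries. The tables hold 12 transcripts matched to this gene, and the 8 that are no members summed to 241, 243 and 209 CPM in the controls and 421, 232 and 385 CPM after the spray. Most of that sum was 1 transcript of 921 bp, at 218, 219 and 200 CPM in the controls and 408, 224 and 364 CPM in the treated libraries. Of the other 7, 2 passed the count criterion, at means of 3.11 and 7.07 CPM in the controls and 2.83 and 4.23 CPM after the spray. Summed over its tabulated transcripts, the gene therefore went from 257 CPM ± 19.1 to 676 CPM ± 256 (SD, n = 3), 2.63-fold. The members held 10.2% of its level in control buds and 48.8% in treated buds.

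The gene Brara.I05288 showed the other arrangement. Its 3 members, of 1496, 452 and 349 bp, came from 3 components and were all its tabulated transcripts. The longest stood at 11.2, 13.3 and 10.3 CPM in the controls and 263, 82.7 and 188 CPM in the treated libraries, a fold of 15.3. The 452-bp transcript had a fold of 13.1 and the 349-bp transcript one of 9.43. Without control 2, which was highest for both, these became 24 and 17.7, and without amidosulfuron 1 they became 9.97 and 6.2. Summed over the gene the level was 12.6, 21.2 and 13.3 CPM against 334, 105 and 230 CPM, or 15.7 CPM ± 4.76 against 223 CPM ± 115 (SD, n = 3), 14.2-fold.

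Summing over all tabulated transcripts of a component keeps reads that are moved between those variants within the sum. Tabulated counts were 30.1% to 34.1% of the authors' RPKM totals. Transcripts absent from the tables would be missing from the component and gene sums, and whether the tables are complete was not tested. For 51 members the component held no other tabulated transcript. Of the other 30 members, 21 had a component sum that was also at least 4-fold higher, so 72 of 81 met that mark in all. The remaining 9 had component sums from 1.79-fold to below 4-fold, 2 of them under 2-fold. One of these was a 719-bp member with a fold of 5.32 of its own in a component whose sum was 1.79-fold higher. Its own fold was 8.08 without control 1 and 4.31 without amidosulfuron 1.

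Summing over the matched gene lowered more of the folds. Of the 76 matched members, 53 had a gene sum at least 4-fold higher and 23 did not. Of the 60 genes, 24 had no tabulated transcript other than the members, and 36 had others. Among those 36 the median fold of the gene sum was 3.94, with 17 at 4-fold or more and 4 under 2-fold. The smallest, 1.51, was that of the gene of the 540-bp member. This gene stood at 1527, 1036 and 1005 CPM in the controls and 2180, 1162 and 2056 CPM in the treated libraries, and the member held 0.0851% of its control level. A 1289-bp member with a fold of 29.3 was 1 of 24 transcripts matched to its gene, and the sum of that gene was 2.67-fold higher.

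**Figure D4:**
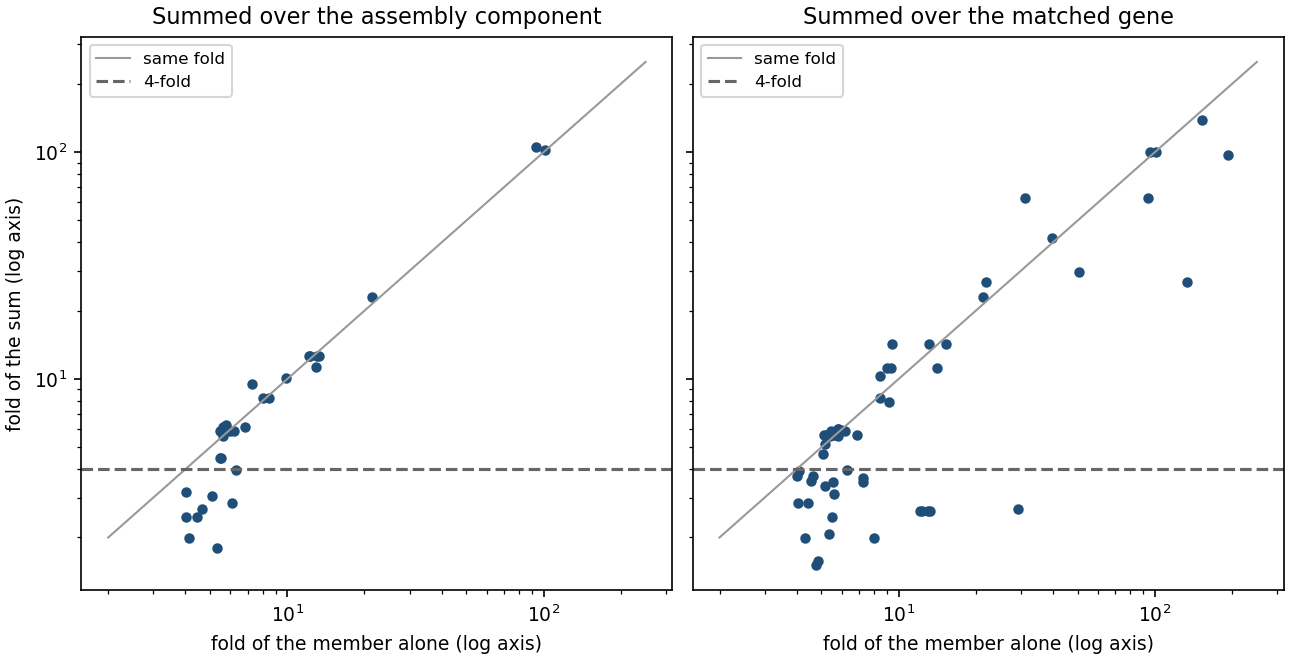
Fold of each member alone (horizontal, log axis) against the fold after summing all tabulated transcripts of its assembly component (left, 30 members whose component has others) or of its matched gene (right, 56 members whose gene has other transcripts), with the line of equal folds. Points below the dashed line are sums under 4-fold, 9 for components and 23 for genes.

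The genes of the members also had 44 transcripts that passed the count criterion and were not members, from 25 genes. They had failed the rule, and they can share reads with members and with each other. The count criterion was met by the control libraries alone for 34 of them. The other 10 passed it only through the treated libraries. Passing in this way favours transcripts that are higher there, so nothing is read from the calls of these 10.

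In edgeR's quasi-likelihood test over the whole table, 0 of the 34 were higher at a Benjamini-Hochberg adjusted p under 0.05, against 0.041% of the 24387 transcripts that met the criterion in the controls alone. DESeq2 gave 6 of the 34 and limma-voom 0. Over all 24958 transcripts tested, 185 and 0 were higher in those fits, and 67 of the 185 were members. The numbers among the 24387 alone are not given for those fits. At an unadjusted p under 0.05 in edgeR, 18 of the 34 were higher, against 5.05% of the 24387, and 0 were lower, against 5.51%. The fitted log2 fold was positive for 27 of the 34 (79.4%, against 47.2%) and had a median of 0.69, against −0.03. Several of the 34 were variants from the same component matched to the same gene, so the 34 are not independent measurements. This split by control counts was chosen after seeing the data.

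Over all 44, including the 10, 3 were higher after amidosulfuron at an adjusted p under 0.05, against 0.16% of all 24958 transcripts tested, and 0 were lower (edgeR quasi-likelihood test over the whole table, Benjamini-Hochberg adjustment). At an unadjusted p under 0.05, 28 were higher, against 5.76% of all tested, and 0 were lower, against 5.38%. The 3 became 0 without control 1 or without control 2, 1 without amidosulfuron 3 and 15 without amidosulfuron 2. In those fits 5, 0, 9 and 224 of all tested transcripts were higher, against 40 in the main fit. The fitted log2 fold was positive for 37 of the 44 (84.1%, against 48.3% of all tested) and had a median of 0.85 (quartiles 0.50 and 1.93), against −0.02 for all tested (quartiles −0.32 and 0.29). Because the 10 are included, nothing is read from these counts over all 44. Of all 571 transcripts that passed the criterion only through the treated libraries, 30 were higher at the adjusted threshold. At an unadjusted p under 0.05, 35.9% of the 571 were higher, and 94.9% had a positive fitted log2 fold.

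The 10 admitted only through the treated libraries met the rule in all but the floor of 1 CPM on the control mean, and the 3 that passed the adjusted threshold were among them. The one with the largest fitted log2 fold, 6.94, was a 1433-bp transcript in the same component as a member (edgeR adjusted p = 0.0117). It stood at 0.417, 0.901 and 1.59 CPM in the controls and at 174, 42.1 and 152 CPM in the treated libraries. The other 2, of 348 and 312 bp, matched the gene of the 940- and 699-bp members. At the other end, a 374-bp transcript had a fitted log2 fold of −1.25 and did not pass the threshold (edgeR adjusted p = 0.595). It matched the gene of a 706-bp member that was 8.05-fold higher.

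**Figure D5:**
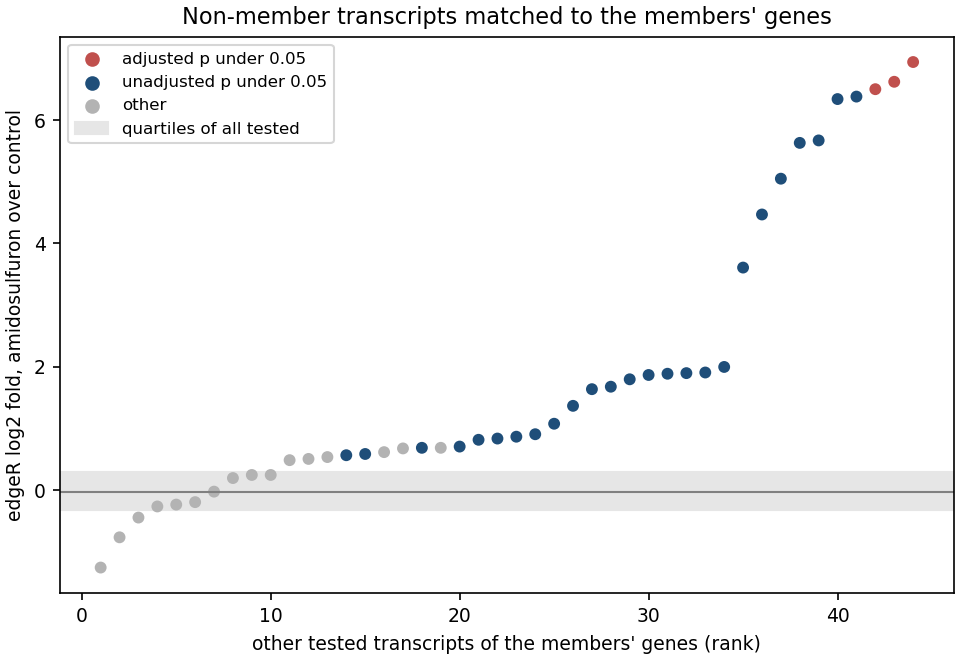
Fitted log2 fold (edgeR, amidosulfuron over control) of the 44 non-member transcripts matched to the members' genes, ordered by size, coloured by the threshold they passed; the grey band spans the quartiles of all tested transcripts, −0.32 to 0.29. The 3 past the adjusted threshold lie at the upper end and are among the 10 that passed the count criterion only through the treated libraries; 37 of 44 are above 0.

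In the same fit, 21 of the 81 members passed the adjusted threshold, beside the 0.16% of all tested; since the rule used this contrast, nothing is read from that count. It was 0 without control 2, 4 to 10 without control 1, control 3, amidosulfuron 1 or amidosulfuron 3, and 67 without amidosulfuron 2. Among all tested transcripts, 0, 5 to 20 and 224 were higher in those fits, against 40 in the main fit. The members that passed had folds from 8.05 upwards with a median of 21.9.

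The 5 members without a gene match, of 470, 566, 860, 946 and 1110 bp, had a median control level of 2.15 CPM, a median treated level of 13.4 CPM and a median fold of 6.25, and all 5 were lowest in amidosulfuron 2. The 946-bp transcript was the highest of them, at 1.67, 4.06 and 1.24 CPM in the controls and 54.8, 18.7 and 72.5 CPM after the spray. Its fold was 21, with 33.4 without control 2 and 15.8 without amidosulfuron 3. In 3 of the 5, amidosulfuron 3 rather than amidosulfuron 1 was highest. The 14 members with whole counts in all libraries had a median fold of 5.38, against 6.29 for the 67 with fractional counts.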

How the data were processed

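The authors aligned clean reads of 36 nt with Bowtie2 2.1.0 (1 mismatch allowed) to transcripts of an earlier Trinity assembly and matched these to Brassica rapa FPsc 1.3 genes, per the series' design text. The labels mention normalized cDNA without the method. The authors deposited estimated counts per transcript, not normalized and partly fractional, per the file headers and values; the labels do not say how reads with several hits were divided. The authors' RPKM values, scaled to transcript length and mapped reads, gave the lengths: count over RPKM was proportional to a whole length in the controls (tolerance 0.05 bp).

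CPM here divides a count by the sum of its tabulated column. Counts rounded to whole numbers were fitted with edgeR 4.0.16 in R 4.3.3 (TMM, glmQLFit, glmQLFTest, group as the only term, threshold 0.05, Benjamini-Hochberg adjustment over 24958 transcripts) after leaving out transcripts with an upper quartile under 10 counts. The fit was tested on simulated data. Alternatives used DESeq2 1.42.0, limma-voom (limma 3.58.1), other library sizes, filters and thresholds, a replicate block, and omission of each library. With 3 replicates a group, precision is limited, and reads carry no molecular identifiers. Identifiers are printed for the 2 genes with the most members (ties by treated level); other members were picked by level, fold or evenness, or as examples after their values were seen. The members and the tests were chosen with earlier results of these data known.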

Additional observations from a re-analysis of the deposited data

How the results depend on the processing

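The count of 81 members depended on the rule's thresholds. It was 131 with a fold threshold of 3 and 34 with 8, 51 and 29 with control means of at least 2 and 5 CPM, and 14 among transcripts with whole counts. TMM-scaled library sizes gave 84 (79 shared). RPKM denominators as library sizes gave 34, where the floor of 1 CPM asks for more reads; scaled to the mean tabulated total they gave 75. An upper quartile of 20 counts gave 61, no filter 86 and allowed overlap 83. Leaving out 1 library gave 63 (without amidosulfuron 1) to 113 (without amidosulfuron 2), of which 62 to 81 were among the 81; without control 3 and amidosulfuron 2 together, chosen after seeing the data, it gave 126. As a replicate block, each treated library at least 4 times the control of the same number, 30 remained. The labels do not say that numbers pair libraries, and same-numbered libraries deviated from their groups with correlations of 0.14, −0.13 and −0.4. The treated library whose deviations correlated best was amidosulfuron 3 for controls 1 and 2, and amidosulfuron 2 for control 3. Whether such shared deviations bear on the grade of the treated libraries was not tested.

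The median fold lay between 4.99 and 7.75 under the library sizes and omissions tried, and the counts by component and gene sum (72 and 53), by highest library (69) and by lowest library (78) stayed within 1.5 times where recomputed. Members past the adjusted threshold (21) numbered 67 with DESeq2, 0 with limma-voom, 75 with no filter and 37 with the replicate block. They numbered 55 without control 3 and amidosulfuron 2 together, and 0 (without control 2) to 67 (without amidosulfuron 2) without 1 library. At an unadjusted p under 0.05, 73 of the 81 passed with limma-voom and 80 in edgeR without control 2. Of all transcripts fitted, 2370 and 2406 passed in those fits, in either direction. Since the rule used this contrast, nothing is read from these counts of members. Of the 44 other transcripts, the 3 higher became 16 with DESeq2, 0 with limma-voom, 17 with no filter, 10 with the replicate block, 0 among the 34 whose control libraries alone met the count criterion, 14 without control 3 and amidosulfuron 2, and 0 (without control 1 or control 2) to 15 (without amidosulfuron 2) without 1 library. Over all transcripts fitted, 40 were higher at the adjusted threshold in the main fit. That number was 185 with DESeq2, 0 with limma-voom, 246 with no filter and 75 with the replicate block. It was 164 without control 3 and amidosulfuron 2 together. Without 1 library it was 0 (without control 2) to 224 (without amidosulfuron 2). The cause of these changes was not tested.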
